A study of Mus musculus with 6 samples.

Results

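The cytosolic ribosomal protein genes encode the proteins of the large (60S) and small (40S) subunits of the ribosome outside mitochondria. They were taken from the deposited table by symbol: Rpl or Rps with a number and at most a short suffix, plus Rplp0, Rplp1, Rplp2 and Rpsa. The rule gave 85 of 19124 genes, 52 of the large and 33 of the small subunit. It used no measured level to choose genes, except that each symbol kept the transcript entry with the longest span, and the higher count sum where spans tied. Ribosomal proteins with other symbols (such as Rack1) fell outside the rule and are given as a list of their own. In total 84 of the 85 passed the filter on low counts and were tested. The exception was Rpl39l, at 9, 5 and 1 counts in the Ctrl libraries and 25, 9 and 0 counts in the KO libraries. Values are given throughout in the order of replicates 1, 2 and 3.

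RNA came from CD31-sorted retinal cells of C57BL/6 mouse pups at postnatal day 7, labelled as endothelial cells. All pups carried the Rnf20 allele labelled Rnf20p/p and received 75 µg of 4-hydroxytamoxifen daily on days 1 to 4. The 3 Ctrl pups are labelled Pdgf{beta}CreERT2neg and the 3 KO pups Pdgf{beta}CreERT2pos, a tamoxifen-inducible recombinase whose driver is active in endothelial cells. Each library was made from 1 pup by full-length cDNA amplification from very low input. In such bulk libraries, fewer cells of a type and less RNA per cell cannot be told apart. Rnf20 is a ubiquitin ligase for histone H2B, and the title of the series ties its level to the VEGF and Notch pathways of growing vessels.

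Each ribosome holds 1 copy of nearly every ribosomal protein, so their messenger RNAs are made and translated in step. Most begin with an unbroken run of pyrimidines at the first transcribed base, the 5′ terminal oligopyrimidine tract. It places their translation under mTOR, a kinase that responds to growth factors and nutrients, through the RNA-binding protein Larp1. Mammalian ribosomal protein genes also have many processed pseudogenes, reverse-transcribed copies elsewhere in the genome, which makes short reads from them hard to place.

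To show this start-site feature in the genes whose values follow, sequences of 60 bases are printed from 40 bases before to 20 after the annotated start, 5′ to 3′ on the gene's strand. They come from the RefSeq promoter table of GRCm38.p6. Capitals mark the longest pyrimidine run (C or T) that reaches within 5 bases of the start, where it holds at least 8 bases. Rpl22 and Rpl7l1 have a shorter run and no capitals, with 4 pyrimidines and 1. Rpl14, Rpl13a, Rplp2 and Rps9 stand for members that rose in KO, and Rpl15 for one with a long run that did not pass the test. The others are paralog pairs treated below.
Rpl14 (chr9:120571477-120571536, plus strand): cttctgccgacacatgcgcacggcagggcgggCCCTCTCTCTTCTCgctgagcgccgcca
Rpl13a (chr7:45128726-45128785, minus strand): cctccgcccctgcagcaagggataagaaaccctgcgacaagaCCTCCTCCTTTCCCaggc
Rplp2 (chr7:141447611-141447670, plus strand): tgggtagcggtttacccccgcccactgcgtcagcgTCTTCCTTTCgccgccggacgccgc
Rps9 (chr7:3704001-3704060, plus strand): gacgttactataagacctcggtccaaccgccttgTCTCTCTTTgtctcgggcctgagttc
Rpl15 (chr14:18270967-18271026, minus strand): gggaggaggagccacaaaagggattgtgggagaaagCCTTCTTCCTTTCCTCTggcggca
Rpl22 (chr4:152324396-152324455, plus strand): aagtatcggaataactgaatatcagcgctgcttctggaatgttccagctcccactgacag
Rpl22l1 (chr3:28805468-28805527, plus strand): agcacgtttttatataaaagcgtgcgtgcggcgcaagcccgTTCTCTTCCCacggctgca
Rps27 (chr3:90213629-90213688, minus strand): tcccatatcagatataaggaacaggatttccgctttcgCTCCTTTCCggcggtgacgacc
Rps27l (chr9:66946046-66946105, plus strand): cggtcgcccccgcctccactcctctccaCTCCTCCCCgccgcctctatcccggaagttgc
Rpl7l1 (chr17:46782637-46782696, minus strand): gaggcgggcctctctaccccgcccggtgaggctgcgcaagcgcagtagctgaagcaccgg

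The RefSeq table held 76 promoters for 64 of the 85 members. A run of at least 8 pyrimidines reaching within 5 bases of the start was present in 25 of the 76 (32.9%), against 9.72% of all 32851 promoters. Another 2 words were searched on both strands of the 300 bases from 250 before to 50 after the start. CCGGAAG, the core to which GABP and other ETS factors bind, was in 35.5% of the members' promoters and in 8.86% of all. CTTTCC, a short pyrimidine word that can overlap the run, was in 48.7% and 26.6%. A match is a description of these letters and shows no binding.

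Ribosomal protein genes were higher in KO, in both subunits. Of the 84 tested, 35 rose and 0 fell (edgeR quasi-likelihood, Benjamini-Hochberg adjusted p under 0.05 over 16217 genes). That is 41.7% of the members, where 5.85% of all tested genes rose and 4.44% fell. At an unadjusted p under 0.05, 51 members were higher and 0 lower. Of all 16217 tested genes, 4953 had such a p in either direction. Every KO library lay above every Ctrl library in 55 members (65.5%, against 19.0% of all tested genes), every KO library below in 0 (18.9% of all), and the groups overlapped in 29. The log2 fold change was positive in 79 members (94.0%, against 51.0% of all tested genes). Its median was 1.03 over the members and 0.03 over all tested genes, and it ran from −0.32 (Rpl5) to 2.14 (Rpl32l).

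The share of each library's counts in the 85 genes was 0.375%, 0.320% and 0.337% in the Ctrl libraries and 0.666%, 0.706% and 0.849% in the KO libraries. Both groups were narrow and did not overlap, with means of 0.344% ± 0.0281 in Ctrl and 0.740% ± 0.0962 in KO (SD, n = 3 each). As CPM with TMM library scaling (counts scaled to library size), the summed level was 3715, 2999 and 3200 in Ctrl and 6527, 7800 and 8931 in KO. The ratio of the group means was 2.35. The 10 members with the highest mean CPM held 65.5% of that sum.

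Markers of cell types also differed between the groups. Summed CPM of 15 endothelial markers was 3708, 5140 and 5657 in Ctrl and 11428, 15631 and 11890 in KO, a ratio of means of 2.69. Of those markers 10 rose and 0 fell, with a median log2 fold change of 1.41. Summed CPM of 14 photoreceptor markers was 33823, 19588 and 22467 in Ctrl and 4942, 9658 and 22235 in KO, so it exceeded the endothelial sum in each Ctrl library and in KO 3. Of these 0 rose and 4 fell, with a median of −1.04, and no marker of either list was at 0 in any library.

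The ribosomal sum divided by the endothelial marker sum was 1.00, 0.583 and 0.566 in Ctrl and 0.571, 0.499 and 0.751 in KO, and the groups overlapped. Divided by the photoreceptor sum it was 0.110, 0.153 and 0.142 in Ctrl and 1.32, 0.808 and 0.402 in KO, with no overlap. With libraries scaled to equal endothelial markers, 0 members rose and 2 fell, and their median was −0.20 while that of all genes was −1.21. The part of cell mixture in the higher ribosomal protein level was not tested. Microglial markers summed to 1505, 1897 and 296 CPM in Ctrl and 308, 15313 and 3013 in KO, and erythroid markers to between 62.1 and 98.2 CPM in Ctrl and between 460 and 686 in KO.

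**Figure D1:**
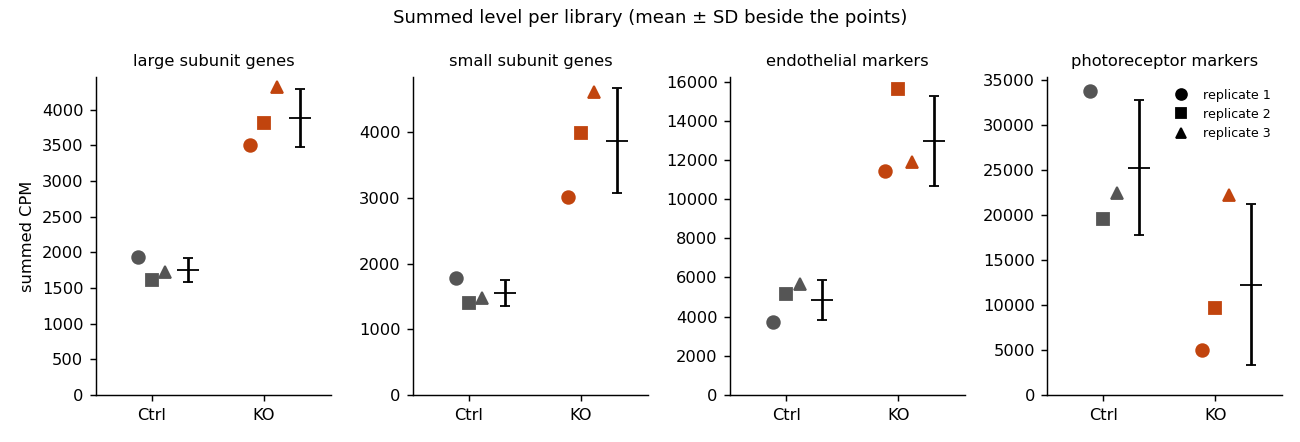
Summed CPM of the large subunit genes, the small subunit genes, the endothelial markers and the photoreceptor markers in each library, with the mean and SD of each group beside the points. Large subunit genes lay between 1606 and 1934 in Ctrl and between 3508 and 4321 in KO, and the endothelial sum separated the groups in the same direction.

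The targeted gene Rnf20 was at 47.9, 57.1 and 56.8 CPM in Ctrl and 39.1, 31.0 and 31.7 CPM in KO, lower in each KO library (log2 fold change −0.67 ± 0.235 SE, edgeR's adjusted p = 0.101). Library totals ran from 14581701 to 30692948 counts.

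By subunit, 19 of 51 tested large subunit genes rose (37.3%), with a median log2 fold change of 0.90. Of 33 small subunit genes 16 rose (48.5%), with a median of 1.18. All 33 had a positive value, against 46 of 51 in the large subunit and 51.0% of all tested genes. Every KO library lay above every Ctrl library in 31 large (60.8%) and 24 small subunit genes (72.7%), against 19.0% of all tested genes. Mean log2 CPM of the large subunit genes was 4.04, 3.77 and 3.86 in Ctrl and 4.66, 4.57 and 4.84 in KO. Small subunit genes were at 4.06, 3.86 and 4.04 in Ctrl and 4.90, 4.99 and 5.23 in KO. The ratio of summed large to summed small subunit CPM was 1.09, 1.15 and 1.16 in Ctrl and 1.16, 0.959 and 0.937 in KO. KO 1 was close to the highest Ctrl value, with KO 2 and KO 3 below every Ctrl library, so the groups overlapped.

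**Figure D2:**
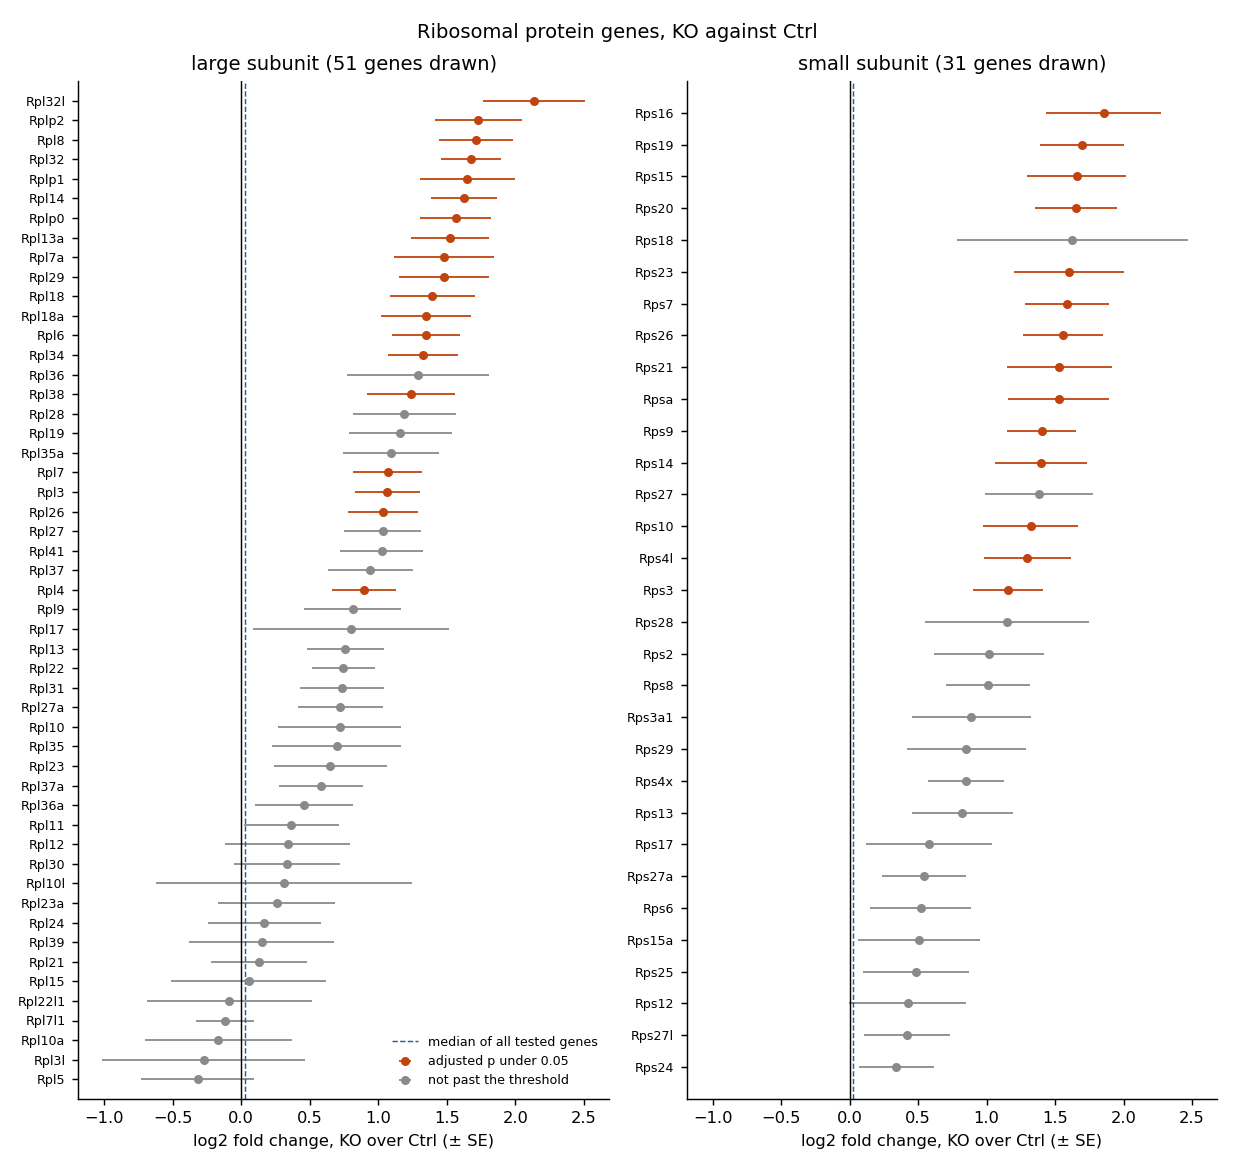
Log2 fold change (KO over Ctrl, bars SE) for 82 of the 84 tested ribosomal protein genes, ordered within each subunit. Genes past the threshold are in red, the dashed line is the median of all tested genes at 0.03, and 5 genes, all of the large subunit, lie below 0.

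Values in every library are given first for the members with the smallest adjusted p. Rpl32, a core protein of the large subunit (chromosome 6, 115805514 to 115808743), was at 78.5, 73.8 and 76.8 CPM in Ctrl and 235, 226 and 272 CPM in KO. Both groups were tight and far apart (log2 fold change 1.68 ± 0.22 SE, edgeR's adjusted p = 0.0211). Rpl14 (chromosome 9, 120571517 to 120574653), whose start carries 14 pyrimidines, was at 20.3, 21.1 and 21.8 CPM in Ctrl and 76.8, 56.2 and 62.3 CPM in KO. Its value was 1.63 ± 0.24 SE (edgeR's adjusted p = 0.0211), and KO 1 was the highest library. Rpl8, which lies near the peptidyl transferase centre, was at 215, 162 and 163 CPM in Ctrl and 459, 628 and 685 CPM in KO, with KO 1 the lowest of its group. It had 1.71 ± 0.27 SE (edgeR's adjusted p = 0.0212). Rpl6 was at 39.9, 29.5 and 32.6 CPM in Ctrl and 71.3, 90.8 and 97.2 CPM in KO (1.35 ± 0.25 SE, edgeR's adjusted p = 0.0231).

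In the small subunit, Rps9, whose run is printed above, was at 186, 137 and 160 CPM in Ctrl and 349, 431 and 496 CPM in KO (1.40 ± 0.25 SE, edgeR's adjusted p = 0.0230). Rps20, which sits in the head of the small subunit, was at 13.9, 18.4 and 21.6 CPM in Ctrl and 44.4, 53.4 and 71.2 CPM in KO (1.65 ± 0.30 SE, edgeR's adjusted p = 0.0230). In each of these genes the groups were apart and KO 3 was the highest library.

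Rps19, the gene most often mutated in Diamond-Blackfan anaemia, was at 47.4, 35.9 and 35.7 CPM in Ctrl and 82.9, 142 and 161 CPM in KO. It rose by 1.70 ± 0.31 SE on the log2 scale (edgeR's adjusted p = 0.0231). Rpsa, a small subunit protein also known as the laminin receptor precursor, was at 2.46, 2.35 and 2.41 CPM in Ctrl and 8.39, 5.78 and 6.68 CPM in KO, and rose (1.53 ± 0.37 SE, edgeR's adjusted p = 0.0404). The highest value in the small subunit was that of Rps16, at 1.85 ± 0.42 SE, with KO libraries at 10.3, 22.3 and 24.6 CPM. Every coding stretch of 50 bases in Rps16 is also found in another gene. In Rpsa 1.20% of these stretches are found in no other gene.

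The stalk of the large subunit recruits translation factors and is built from Rplp0, Rplp1 and Rplp2. All 3 rose. Rplp0, which anchors the stalk, was at 192, 162 and 180 CPM in Ctrl and 392, 600 and 590 CPM in KO (1.57 ± 0.26 SE, edgeR's adjusted p = 0.0221). Rplp1 was at 63.3, 44.4 and 49.6 CPM in Ctrl and 93.9, 189 and 212 CPM in KO (1.65 ± 0.35 SE, edgeR's adjusted p = 0.0294). Rplp2 was at 15.5, 12.5 and 13.2 CPM in Ctrl and 30.1, 47.6 and 59.3 CPM in KO (1.73 ± 0.32 SE, edgeR's adjusted p = 0.0231). In each of the 3, KO 1 was the lowest KO library and still above every Ctrl library.

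Of the members with a role in signalling, Rpl5, Rpl11, Rps6 and Rps27a did not pass the threshold. In each of them every coding stretch of 50 bases is also found in another gene. Only 3 of the 30 members of that class, treated below, rose. Rpl5 and Rpl11 bind Mdm2 and free p53 when ribosome assembly fails. Rpl5 was at 28.6, 32.7 and 32.7 CPM in Ctrl and 42.6, 15.3 and 17.4 CPM in KO, so KO 1 lay above and KO 2 and KO 3 below the Ctrl libraries (log2 fold change −0.32 ± 0.41 SE, edgeR's adjusted p = 0.636). Rpl11 was at 6.87, 4.95 and 4.63 CPM in Ctrl and 7.45, 6.13 and 7.61 CPM in KO (0.36 ± 0.35 SE, edgeR's adjusted p = 0.511). Rps6, the substrate of S6 kinase, was at 4.48, 7.55 and 8.41 CPM in Ctrl and 11.8, 9.36 and 8.12 CPM in KO (0.52 ± 0.37 SE, edgeR's adjusted p = 0.376). The groups overlapped in each of them. Rps27a, made as a fusion with ubiquitin, was at 8.10, 6.77 and 8.02 CPM in Ctrl and 10.4, 9.997 and 13.0 CPM in KO, with no overlap (0.54 ± 0.31 SE, edgeR's adjusted p = 0.264).

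The member with the highest mean level was Rps3, a small subunit protein at the mRNA entry site, at 406, 321 and 325 CPM in Ctrl and 622, 799 and 917 CPM in KO (1.15 ± 0.26 SE, edgeR's adjusted p = 0.0325). Next came Rpl4, a large subunit protein of the exit tunnel, at 385, 373 and 398 CPM in Ctrl and 841, 620 and 691 CPM in KO (0.90 ± 0.23 SE, edgeR's adjusted p = 0.0479). The lowest of those tested was Rpl17, at 1.13, 1.07 and 0.587 CPM in Ctrl and 2.98, 0.597 and 1.34 CPM in KO (0.80 ± 0.72 SE, edgeR's adjusted p = 0.481). Those levels rest on 33, 26 and 9 counts in Ctrl and 76, 15 and 39 counts in KO.

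Levels across members went with how much of each coding sequence is its own. Coding sequences were cut into all words of 50 bases, the read length, and each word was looked up in the transcripts of every other gene in GENCODE M21, pseudogenes included. In 30 members no word was unique, in 37 fewer than 50% were, and in 18 at least 50% were. Median CPM per coding kilobase over these groups was 19.1, 42.7 and 347, and the Spearman correlation of the level with the unique share was 0.62 over 82 members with a coding length, given as a description. Rps3 with 91.9% unique words was at 775 CPM per coding kilobase, and Rpl17 with 0% at 2.33. Rpl41, whose coding sequence has only 75 bases, was an exception at 605 with no unique word. Reads from introns and untranslated stretches can have entered these counts too, and how reads with more than one location were counted is not given in the sources used here, so levels of such members are uncertain.

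Of the 30 members with no unique word 3 rose, with a median log2 fold change of 0.73. Of the 37 with some unique words 20 rose (54.1%), with a median of 1.29. Of the 17 tested with mostly unique words 12 rose (70.6%), with a median of 1.30. Every KO library lay above every Ctrl library in 53.3%, 70.3% and 76.5% of the 3 classes, against 19.0% of all tested genes. Median Ctrl levels in the 3 classes were 5.38, 13.8 and 76.4 CPM, so low counts went along with shared sequence.

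**Figure D3:**
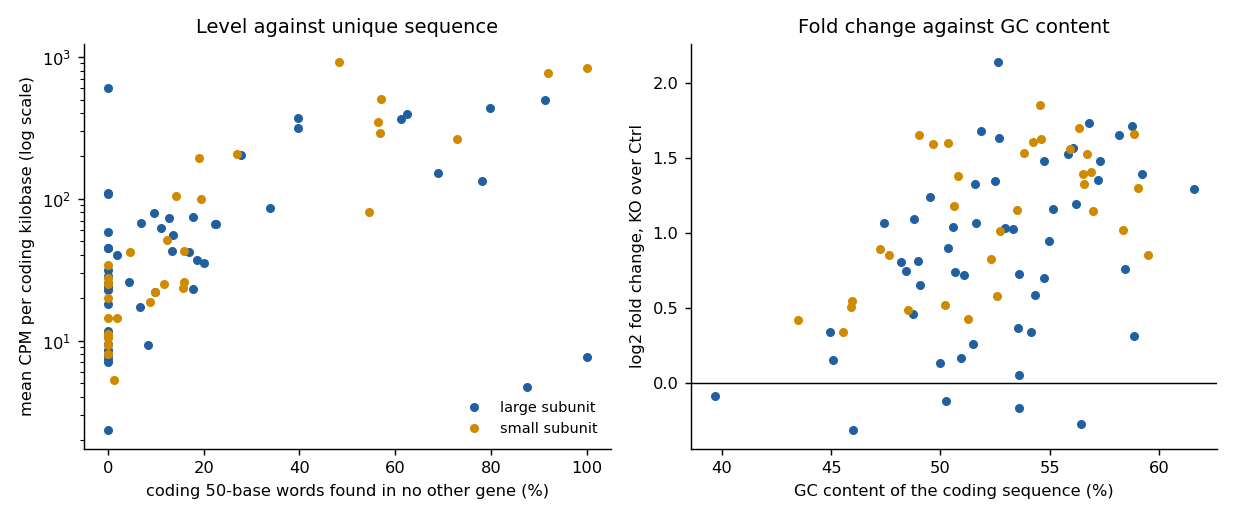
Left, mean CPM per coding kilobase (log scale) against the share of coding 50-base words found in no other gene, and right, log2 fold change of KO over Ctrl against GC content of the coding sequence, one point per tested ribosomal protein gene. Levels range from 2.33 to 914 per coding kilobase, and the fold change correlates with GC content at a Spearman rho of 0.46 over 84 genes.

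The fold changes also went with base composition. Spearman's rho between log2 fold change and coding GC content was 0.46 over 84 members, and 0.37 over 16109 genes, points that share the same 6 libraries. Split at the median GC content, 14 of 42 members below it rose (median 0.77), and 21 of 42 at or above it (median 1.29). KO 1 differed from KO 2 and KO 3 along the same axis: the log2 difference between KO 1 and the mean of the other two correlated with GC content at −0.59. KO 1 was the highest KO library in 34 of 85 members, with a median GC content of 50.2%, and 4 of the 33 tested rose. It was the lowest in 43, with a median GC content of 54.7%, of which 28 rose. Over all tested genes KO 1 was the highest in 40.7% and the lowest in 41.3%. With per-library offsets for GC content 39 members rose, 32 of them among the 35, and the median was 0.98.

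Ribosomal protein messages are short, with a median exonic length of 831.5 bases against 2786 over all tested genes with a value. With per-library offsets for exonic length 21 members rose and the median was 0.70. Without KO 1, 45 members rose and 1 fell, where 2520 of all tested genes rose and 2407 fell. Without KO 3, 12 members rose, where 499 of all tested genes rose and 367 fell. Without KO 2 or any single Ctrl library 0 members passed. In those 4 fits 0 of all tested genes passed either. Between 40 and 51 members had an unadjusted p under 0.05, as did between 3434 and 4005 of all tested genes. The members' median stayed between 0.98 and 1.13.

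The paralogs were compared with their partners through the log2 ratio of the 2 genes in each library, with 0.5 CPM added to each. The share of unique coding words differed within the pairs, so each ratio sets genes with unlike amounts of shared sequence against each other. It was 78.1% in Rpl7l1 and 22.5% in Rpl7, and 20.1% in Rpl22l1 and 69.0% in Rpl22. Rpl3l had 100% and Rpl3 4.31%, and Rpl10l had 87.5% and Rpl10 0%. With 3 libraries a group, the exact permutation test (two-sided) cannot go below p = 0.1, and values were adjusted over 5 pairs. The sixth pair, Rpl39l with Rpl39, had 1 gene below the count filter. Rpl39 was at 4.34, 6.52 and 7.76 CPM in Ctrl and 12.3, 3.66 and 4.59 CPM in KO (log2 fold change 0.15 ± 0.53 SE, edgeR's adjusted p = 0.873), with KO 1 above, KO 2 below and KO 3 within the Ctrl range.

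Rpl7l1, related to a yeast factor of large subunit assembly, was at 113, 97.0 and 96.5 CPM in Ctrl and 97.4, 91.1 and 93.9 CPM in KO (log2 fold change −0.12 ± 0.21 SE, edgeR's adjusted p = 0.737). Its partner Rpl7 was at 33.8, 31.8 and 37.7 CPM in Ctrl and 90.3, 61.3 and 64.9 CPM in KO, and rose (1.07 ± 0.25 SE, edgeR's adjusted p = 0.0376). The log2 ratio of Rpl7l1 to Rpl7 was 1.73, 1.59 and 1.34 in Ctrl and 0.11, 0.57 and 0.53 in KO. Of the 5 pairs it was the only one whose groups did not overlap, with a difference of −1.15 at the smallest p possible (exact p = 0.1, adjusted 0.333).

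Rpl22l1, which Rpl22 is known to repress, was at 8.75, 14.2 and 16.6 CPM in Ctrl and 24.7, 4.74 and 7.71 CPM in KO, with KO 1 above and the other KO libraries below every Ctrl library (−0.09 ± 0.60 SE, edgeR's adjusted p = 0.938). Rpl22 was at 43.8, 42.8 and 44.1 CPM in Ctrl and 82.4, 59.4 and 77.4 CPM in KO, with no overlap (0.75 ± 0.23 SE, edgeR's adjusted p = 0.0734). The log2 ratio of the pair was −2.26, −1.56 and −1.39 in Ctrl and −1.72, −3.51 and −3.25 in KO, a difference of −1.09 (exact p = 0.2, adjusted 0.333). Rpl22l1 had the lowest coding GC content of the members, and with GC offsets its log2 fold change was 0.51.

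Rps27l, which p53 is known to induce, was at 59.7, 72.5 and 79.7 CPM in Ctrl and 136, 66.1 and 80.5 CPM in KO (0.42 ± 0.31 SE, edgeR's adjusted p = 0.404). Rps27 was at 6.25, 3.51 and 4.43 CPM in Ctrl and 9.02, 11.2 and 16.7 CPM in KO, with no overlap (1.38 ± 0.39 SE, edgeR's adjusted p = 0.0613). Their log2 ratio was 3.16, 4.19 and 4.02 in Ctrl and 3.84, 2.51 and 2.23 in KO, a difference of −0.93 (exact p = 0.2, adjusted 0.333). Rps27 has no unique 50-base word and Rps27l has 72.9% of its words unique, so the ratio within a library sets a gene with shared sequence against one with little.

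Rpl3l, the paralog of striated muscle, was at 19.0, 4.25 and 7.23 CPM in Ctrl and 2.78, 5.97 and 16.4 CPM in KO, spread widely in both groups (−0.28 ± 0.74 SE, edgeR's adjusted p = 0.830). Rpl3 was at 19.5, 20.2 and 21.0 CPM in Ctrl and 39.8, 46.5 and 40.8 CPM in KO, and rose (1.07 ± 0.24 SE, edgeR's adjusted p = 0.0325). The difference of their log2 ratio was −1.38 (exact p = 0.3, adjusted 0.375). Rpl10l, the autosomal paralog used in the testis, was at 6.83, 0.701 and 0.521 CPM in Ctrl and 5.06, 2.59 and 2.47 CPM in KO (0.31 ± 0.93 SE, edgeR's adjusted p = 0.849). X-linked Rpl10 was at 4.07, 4.54 and 3.85 CPM in Ctrl and 11.0, 5.22 and 4.32 CPM in KO (0.72 ± 0.45 SE, edgeR's adjusted p = 0.312), and the ratio differed by 0.28 (exact p = 1.0, adjusted 1.0). That difference turned negative without Ctrl 2, without Ctrl 3 or with 2 CPM added, and was 1.20 without Ctrl 1.

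**Figure D4:**
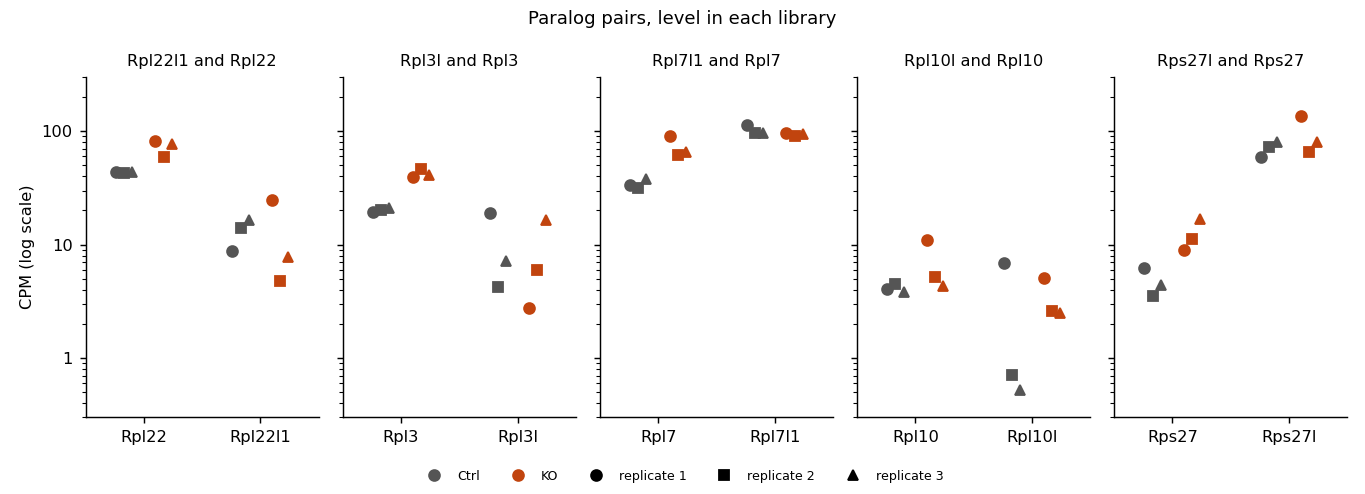
Level in CPM (log scale) of each partner and its paralog in every library, grey for Ctrl and red for KO, with 1 symbol per replicate number. The 3 KO libraries lie above the 3 Ctrl libraries for Rpl22, Rpl3, Rpl7 and Rps27, and the groups overlap for Rpl10 and all 5 paralogs.

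A pair of gene copies outside that list rose, and they were singled out after their values were seen. Rpl32l (chromosome 10, 20208439 to 20209030), which overlaps Map7, was at 2.49, 2.48 and 2.61 CPM in Ctrl and 7.92, 11.0 and 14.4 CPM in KO (2.14 ± 0.37 SE, edgeR's adjusted p = 0.0228). Rps4l (chromosome 6, 148354656 to 148355596), a transcribed pseudogene that overlaps Tmtc1, was at 54.5, 37.7 and 46.1 CPM in Ctrl and 72.4, 118 and 150 CPM in KO (1.30 ± 0.32 SE, edgeR's adjusted p = 0.0420). X-linked Rps4x was at 12.4, 11.9 and 12.6 CPM in Ctrl and 27.2, 19.8 and 19.6 CPM in KO, with no overlap (0.85 ± 0.28 SE, edgeR's adjusted p = 0.0842). The counts do not tell reads of such copies from those of the gene they overlap. Of the 14 members whose span overlaps another gene 4 rose, with a median of 0.88, and of the other 70 tested 31 rose, with a median of 1.03.

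Members were then divided by the run at the annotated start, so the class of a gene depends on where that start is placed. The 21 members with no promoter sequence are in neither class. Of 25 tested members with a run of at least 8, 12 rose, with a median log2 fold change of 1.24. Of 38 with a shorter run 11 rose, with a median of 0.82. Run length was not compared with fold change over all members, and single genes with long runs differed. Rpl15, with 17 pyrimidines and no unique coding word, was at 13.5, 36.1 and 31.2 CPM in Ctrl. In KO it was at 52.4, 15.9 and 15.6 CPM, with KO 1 far above the other KO libraries (0.05 ± 0.57 SE, edgeR's adjusted p = 0.959). Rpl13a, with 14 pyrimidines and 61% of its coding words unique, was at 142, 91.4 and 110 CPM in Ctrl. It was at 247, 341 and 400 CPM in KO, and rose (1.52 ± 0.29 SE, edgeR's adjusted p = 0.0239).

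Other parts of the translation machinery were counted from lists of their own. Of 4 tested ribosomal proteins with other symbols 3 rose and 0 fell, with a median of 1.25, where 5.85% of all tested genes rose. Rack1, a scaffold on the small subunit, was at 232, 192 and 188 CPM in Ctrl and 468, 574 and 535 CPM in KO (1.37 ± 0.23 SE, edgeR's adjusted p = 0.0224), and Rpl36al had 1.13 ± 0.29 SE.

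Of 44 translation initiation and elongation factors 12 rose and 0 fell, with a median of 0.54, where 5.85% of all tested genes rose. Eif4ebp1, the inhibitor of cap-dependent initiation that mTOR phosphorylates, was at 27.3, 32.2 and 24.6 CPM in Ctrl and 67.3, 103 and 96.3 CPM in KO (1.66 ± 0.26 SE, edgeR's adjusted p = 0.0212). The elongation factors Eef2, at 1.43 ± 0.24 SE, Eef1a1, at 1.15 ± 0.22 SE, and Eef1d, at 1.21 ± 0.23 SE, rose; messages of Eef2 and Eef1a1 also carry the terminal pyrimidine tract.

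Genes that build ribosomes make the next lists, to be read beside the 5.85% of all tested genes that rose and the 4.44% that fell. Of 58 ribosome biogenesis factors 2 rose and 0 fell, with a median of −0.12, and both encode proteins of the box H/ACA particles that modify ribosomal RNA. Nhp2 had 1.17 ± 0.23 SE and Nop10 1.18 ± 0.26 SE. Summed CPM of the 58 was 4403, 4064 and 4178 in Ctrl and 4419, 4086 and 4183 in KO. Of 15 genes of RNA polymerase I transcription 1 rose and 0 fell (Polr1d, a subunit shared with polymerase III, 0.87 ± 0.22 SE), with a median of −0.12. Of 13 snoRNA host genes 0 passed edgeR's test, and 1 by DESeq2 or 0 by limma-voom, with a median of 0.09. By edgeR 2 of them had an unadjusted p under 0.05, as did 4953 of all 16217 tested genes.

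Among 19 regulators of ribosomal protein synthesis, 2 rose and 0 fell, with a median of −0.01. For this list and the next, the shares over all tested genes were 5.85% higher and 4.44% lower. Myc, a transcription factor that drives ribosome production, was at 40.4, 35.4 and 40.3 CPM in Ctrl and 66.8, 124 and 98.6 CPM in KO (1.32 ± 0.28 SE, edgeR's adjusted p = 0.0302). Zbtb7a, a transcription factor of the same list, had 1.29 ± 0.23 SE. Of 17 p53 targets 4 rose and 1 fell, with a median of 0.26. Cdkn1a, an inhibitor of the cell cycle, was at 247, 232 and 239 CPM in Ctrl and 740, 1253 and 1338 CPM in KO (2.21 ± 0.29 SE, edgeR's adjusted p = 0.0211). The cytokine Gdf15 had 2.48 ± 0.45 SE, the BH3 protein Bbc3 1.45 ± 0.25 SE and Phlda3, an Akt repressor, 1.58 ± 0.40 SE. Trp53inp1, singled out as the only one of the list that fell, was at 40.2, 58.5 and 54.2 CPM in Ctrl and 26.0, 9.12 and 8.12 CPM in KO (−1.82 ± 0.48 SE, edgeR's adjusted p = 0.0493).

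**Figure D5:**
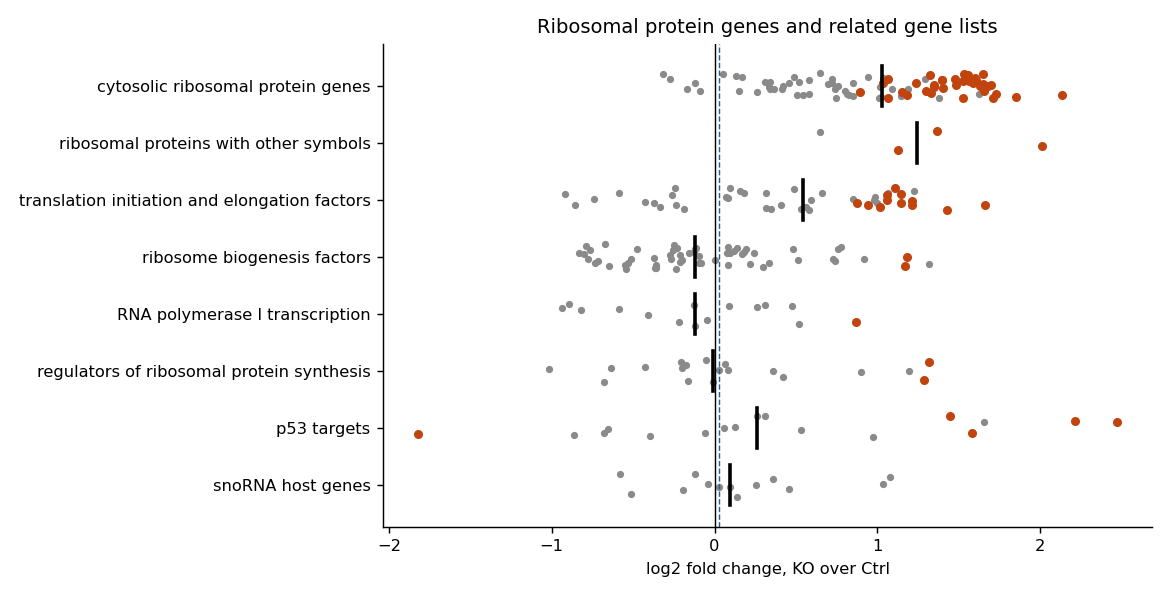
Log2 fold change of KO over Ctrl for each tested ribosomal protein gene and each tested gene of the related lists, red where past the threshold, with a black bar at each median and a dashed line at the median of all tested genes. Medians were 1.03 for ribosomal protein genes and 1.25 for those with other symbols, 0.54 for translation factors and −0.12 for ribosome biogenesis factors.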

How the data were processed

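Per the file headers, the authors deposited for each library raw counts of RefSeq transcript entries, normalized counts (a signal, the count divided by a size factor), and RPKM values. The authors' log2 fold change stands in the deposited table beside a score (the Wald statistic) and the p-value, raw and adjusted. Tools in the submitters' processing notes are STAR, Trimmomatic 0.36, deepTools, edgeR and DESeq2, and the build is mm10. Which tool counted the reads is not given in the sources used here. Length in the deposited table lay within 2% of the genomic span for 80.4% of matched genes, so counts can include reads in introns. One count column of the Ctrl group has a name unlike its replicate number and was taken as Ctrl 3, because its group's other columns matched by name. The table holds 34035 entries, of which 33902 (19039 genes) matched RefSeq's gene models for GRCm38.p6 (mm10). All 85 members matched. They had 135 entries, and 21 had more than 1.

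The main test, on the authors' counts of all 6 libraries, was edgeR's quasi-likelihood F test (R 4.3.3 with edgeR 4.0.16), with TMM scaling, filterByExpr, no covariate and Benjamini-Hochberg adjustment over 16217 genes at 0.05. SE is the log2 fold change divided by the square root of F. The p-values measure the spread between single pups. Coding sequences, exonic lengths and GC content came from GENCODE M21. GC and length offsets are lowess curves (span 0.3) of log2 CPM per library. Alternatives used DESeq2 1.42.0, limma 3.58.1 (voom), DESeq2 size factors, no filter, the entry with the highest count sum, TMM without ribosomal protein genes, equal endothelial markers, offsets, a replicate block and each library left out. Scripts were tested on simulated data. Summaries and figures used matplotlib 3.10.9, scipy 1.17.1, numpy 2.4.6 and pandas 2.3.3 under Python 3.11.15.

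The members and all gene lists were chosen with earlier results of these data known. The rule for named genes gave in full the 12 members with the smallest adjusted p (results for some genes it takes are not reported here), the paralog pairs, members with the roles described, and the highest and lowest. From each list it took at most 4 genes past the threshold. Other members are named in passing, and Rpl32l, Rps4l and Trp53inp1 as stated. No label names a batch, a litter or the sex of a pup.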

Additional observations from a re-analysis of the deposited data

How the results depend on the processing

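The median log2 fold change of the members stayed between 0.70 and 1.13 and positive under every alternative but the scaling to equal endothelial markers, and the counts of calls moved more. That scaling shifted the median of all genes to −1.21. It left 33 of 84 tested members with a positive log2 fold change, against 79 in the main fit. It gave 75 genes higher and 7416 lower, and 0 members higher and 2 lower (all in the large subunit). Medians were −0.20 for all members, −0.34 for the large and 0.020 for the small subunit. Signs that turned are given below for named genes only. No gene of any pathway list was then higher but 12 translation factors (median −0.70), 43 biogenesis factors, 9 polymerase I genes, 11 regulators, 7 p53 targets (median −0.95) and 4 snoRNA hosts were lower. Log2 fold changes turned to −0.10 for Eef1a1, −0.031 for Eef1d, −0.088 for Nhp2, −0.36 for Polr1d, −0.54 for Rpl10, −1.21 for Rpl10l, −0.91 for Rpl11, −1.11 for Rpl15, −0.46 for Rpl17, −0.48 for Rpl22, −0.17 for Rpl3, −0.10 for Rpl36al, −1.04 for Rpl39, −0.34 for Rpl4, −0.21 for Rpl41, −0.17 for Rpl7, −0.88 for Rps24, −0.68 for Rps27a, −0.79 for Rps27l, −0.10 for Rps3, −0.39 for Rps4x and −0.66 for Rps6.

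Whether the replicate numbers pair the libraries was not settled. Correlations of deviations between libraries of the same number were −0.39, 0.07 and −0.26, and those of unlike numbers ran from −0.33 to 0.41. With 3 libraries a group the deviations depend on each other, so these values cannot decide it. With the replicate block 0 members, 0 genes of every list and 1 of all genes rose and 0 fell, the members' median was 1.03, and Rpl15 turned to −0.16 and Rpl39 to −0.055. The replicate block with GC offsets gave 0 members and 2 of all genes higher and 0 lower, a p53 target median of −0.027, and Rpl15 at −0.27, Rpl22l1 at 0.46 and Rpl7l1 at 0.0081. Length offsets gave 21 members higher (11 large, median 0.65, and 10 small, median 0.96; 0.70 for both), 7 translation factors, 1 biogenesis factor higher and 1 lower, 0 polymerase I genes, and −0.039 for Rpl15 and −0.13 for Rpl39. With GC offsets 19 translation factors and 0 polymerase I genes were higher, 1 biogenesis factor and 1 regulator lower, Rpl22l1 was at 0.51 and Rpl7l1 at 0.0020. DESeq2's Wald test gave 2027 genes higher and 1529 lower, 5 biogenesis factors and 1 snoRNA host higher, and 1 translation factor, 1 biogenesis factor, 3 polymerase I genes, 1 regulator and 2 p53 targets lower. Limma-voom gave 1 biogenesis factor and 1 polymerase I gene lower and Rpl15 at −0.047, and no filter gave 7 translation factors and 0 polymerase I genes higher. With 2 CPM added, the ratio of Rpl10l to Rpl10 was −0.029. The cause of these changes was not tested.

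Leaving out each library in turn gave 0 to 45 members higher and 0 to 1 lower, 0 to 26 large (0 to 1 lower) and 0 to 19 small subunit genes higher (small subunit median 1.16 to 1.36), and over all genes 0 to 2520 higher and 0 to 2407 lower. Ranges of genes higher were 0 to 3 for ribosomal proteins with other symbols, 0 to 17 for translation factors (0 to 7 lower), 0 to 8 for biogenesis factors (0 to 11 lower), 0 to 1 for polymerase I (0 to 3 lower), 0 to 3 for regulators (0 to 2 lower), 0 to 6 for p53 targets (0 to 4 lower) and 0 to 2 for snoRNA hosts. Log2 fold changes changed sign for Rpl10a (−0.79 to 0.30), Rpl10l (−0.16 to 2.44), Rpl15 (−0.71 to 0.36), Rpl22l1 (−1.01 to 0.31), Rpl39 (−0.52 to 0.46) and Rpl3l (−1.15 to 0.55), and the ratio of Rpl10l to Rpl10 ran from −0.19 to 1.20. Members at a few counts, such as Rpl17, limit what these depths can show.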

Other observations

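The authors' deposited table, which tested transcript entries with DESeq2, gave 48 of the 85 ribosomal protein genes as higher and 0 as lower at an adjusted p under 0.05. The share called over all its entries is not given here. With 1 entry per symbol, DESeq2's Wald test gave 46 members higher, and 2027 of all genes higher and 1529 lower. That is more genes than the 948 higher and 720 lower by edgeR's test. Of the 4 X-linked members (Rpl10, Rpl36a, Rpl39 and Rps4x) 0 passed edgeR's test, with a median log2 fold change of 0.59. An unadjusted p under 0.05 was found in 1 of them, and in 4953 of all 16217 tested genes. In Rps18 and Rpl10a single libraries of a group lay far apart. Rps18 was at 17.7, 4.58 and 12.1 CPM in Ctrl and 4.39, 44.2 and 57.5 CPM in KO, so KO 1 lay below every Ctrl library and the others above. Rpl10a was at 118, 51.6 and 57.5 CPM in Ctrl and 27.8, 56.0 and 118 CPM in KO, with Ctrl 1 equal to KO 3 at the printed precision. These genes were singled out after their values were seen.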
